A study of Mus musculus with 10 samples.

Results

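The genes described are 36 genes of the response to low oxygen and of glycolysis: glucose and lactate transporters, enzymes of the glycolytic pathway and their regulators, and targets of the hypoxia-inducible factors (HIFs). They were chosen by gene symbol, and each was read from the probe set annotated to that symbol alone that had the highest mean over the arrays. This gave values for 32 of the 36, among 18193 genes on the array. Gpi1 and Eno1 had no probe set of a single symbol, the probe sets of Bnip3l were shared with a pseudogene symbol, and Ero1l appeared under its current symbol Ero1a, which is reported beside the 32 and not counted among them.

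The cultures were embryonic stem cells from C57BL/6 mice, left to differentiate. At day 8 there was 1 culture with keratinocyte growth factor (KGF, also called FGF7, a growth factor for epithelial cells) and 1 control culture. At day 17 and again at day 24 there was 1 culture with KGF and DCI, 1 with DCI, 1 with KGF and 1 control. DCI is taken as the combination of dexamethasone and raised cAMP in the title of the series, which asks whether KGF and that combination act together in differentiation toward alveolar type II cells. The labels give no dose, no oxygen level and no start of treatment, and call every culture embryonic stem cells at a day of differentiation, with no purified cell type. In bulk samples, fewer cells of a type and less RNA per cell cannot be told apart.

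Each condition was read on 1 Affymetrix array, with no replicate array. Levels are log2 intensities, on which a difference of 1 is a 2-fold change, and levels of different genes cannot be compared because each probe set has its own sensitivity. Array medians lay between 5.23 and 5.31. In the control probe sets, 1 array differed from the rest, that of the day 8 control culture. Its signal at the 3′ end exceeded that at the 5′ end by 1.05 for Actb (other arrays, 0.459 to 0.620) and by 4.80 for the dap spike (other arrays, 1.35 to 2.68). Of the markers of undifferentiated stem cells, Pou5f1 lay between 3.93 and 6.24 and Nanog between 4.48 and 6.85. In the tests described below, 3 of 8 such markers rose and 1 fell from day 8 to day 17. From day 17 to day 24, 1 rose and 3 fell. With DCI 1, Klf4, rose and none fell, and 7 of 8 differences were above 0, with a median of 0.59. Marker sets of macrophages, epithelium, muscle, neurons, primitive erythroid cells, endothelium, alveolar type II cells, and visceral endoderm and liver were read in the cultures. They are given beside the results.

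HIFs are transcription factors made of an oxygen-regulated alpha subunit and a constant beta subunit. In the presence of oxygen, prolyl hydroxylases of the Egln family mark the alpha subunit for destruction through the VHL protein. When oxygen is scarce the alpha subunit accumulates and the factor binds a short core sequence, ACGTG or GCGTG, near genes for glucose uptake, glycolysis, lactate export, blood vessel growth and pH control. Pluripotent stem cells are known for a high rate of glycolysis, and many of the same genes also respond to hormones and growth factors.

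The promoters of the genes that carry the results are shown first, to place that core sequence. RefSeq windows of 300 bases, from 250 before to 50 after the transcription start (build GRCm38.p6), were available for 30 of the 32 genes, in 43 windows. The search read ACGTG and GCGTG on both strands, so that CACGT and CACGC also counted, and the palindrome CACGTG counted on each strand. At least 1 core was present in 33 of 43 windows (76.7%), against 14380 of all 32851 windows (43.8%). ACGTG was in 58.1% of the members' windows and 19.6% of all, and GCGTG in 51.2% and 32.4%. Windows of the members were also richer in G and C, with a median of 63.3% against 52.7%, and the part of base composition in the motif shares was not tested. The E-box CACGTG was in 7.0% of the members' windows and 7.2% of all, and the cAMP response element TGACGTCA in 2.3% and 1.8%. These matches describe letters and are not measured binding sites. In the following windows, written 5′ to 3′ on the gene's strand, capitals mark each core. Car9, Adm, Egln3, Bnip3 and P4ha2 were among the genes that rose most at day 24. Hk2 and Slc2a1, and also P4ha2, differed in opposite directions over the successive intervals.
Car9 (chr4:43506776-43507075, plus strand): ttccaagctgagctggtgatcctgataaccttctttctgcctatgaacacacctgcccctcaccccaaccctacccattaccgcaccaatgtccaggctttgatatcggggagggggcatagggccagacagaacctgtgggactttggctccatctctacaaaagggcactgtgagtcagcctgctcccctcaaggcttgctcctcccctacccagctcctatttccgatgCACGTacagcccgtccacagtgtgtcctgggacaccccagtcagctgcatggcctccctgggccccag
Adm (chr7:110627407-110627706, plus strand): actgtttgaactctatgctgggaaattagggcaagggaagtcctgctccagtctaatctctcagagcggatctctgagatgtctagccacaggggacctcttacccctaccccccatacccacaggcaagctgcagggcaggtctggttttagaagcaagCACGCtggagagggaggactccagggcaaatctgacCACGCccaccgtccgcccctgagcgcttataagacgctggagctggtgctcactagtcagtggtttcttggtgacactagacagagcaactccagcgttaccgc
Egln3 (chr12:54203825-54204124, minus strand): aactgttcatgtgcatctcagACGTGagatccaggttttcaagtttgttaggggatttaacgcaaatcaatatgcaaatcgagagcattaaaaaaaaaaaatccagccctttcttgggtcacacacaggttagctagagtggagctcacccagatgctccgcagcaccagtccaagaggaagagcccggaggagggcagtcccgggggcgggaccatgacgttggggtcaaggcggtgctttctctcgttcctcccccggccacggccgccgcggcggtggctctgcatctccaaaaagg
Bnip3 (chr7:138909457-138909756, minus strand): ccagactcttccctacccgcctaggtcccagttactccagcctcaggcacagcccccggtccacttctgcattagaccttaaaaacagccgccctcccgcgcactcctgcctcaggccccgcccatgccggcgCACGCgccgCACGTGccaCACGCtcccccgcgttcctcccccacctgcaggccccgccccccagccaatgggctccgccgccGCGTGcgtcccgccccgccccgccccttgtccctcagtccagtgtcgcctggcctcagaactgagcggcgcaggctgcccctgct
P4ha2 (chr11:54100674-54100973, plus strand): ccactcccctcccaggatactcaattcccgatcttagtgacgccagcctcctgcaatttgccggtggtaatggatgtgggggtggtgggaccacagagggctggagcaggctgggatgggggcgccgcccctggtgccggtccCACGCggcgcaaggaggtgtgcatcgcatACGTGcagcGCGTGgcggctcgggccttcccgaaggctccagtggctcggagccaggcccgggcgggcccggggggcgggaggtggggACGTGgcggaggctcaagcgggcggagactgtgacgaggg
Hk2 (chr6:82774405-82774704, minus strand): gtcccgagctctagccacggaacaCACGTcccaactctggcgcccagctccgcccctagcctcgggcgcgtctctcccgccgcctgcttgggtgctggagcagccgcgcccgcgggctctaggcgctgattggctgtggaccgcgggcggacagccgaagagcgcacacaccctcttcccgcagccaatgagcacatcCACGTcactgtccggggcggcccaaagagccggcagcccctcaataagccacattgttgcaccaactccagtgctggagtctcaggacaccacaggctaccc
Slc2a1 (chr4:119108495-119108794, plus strand): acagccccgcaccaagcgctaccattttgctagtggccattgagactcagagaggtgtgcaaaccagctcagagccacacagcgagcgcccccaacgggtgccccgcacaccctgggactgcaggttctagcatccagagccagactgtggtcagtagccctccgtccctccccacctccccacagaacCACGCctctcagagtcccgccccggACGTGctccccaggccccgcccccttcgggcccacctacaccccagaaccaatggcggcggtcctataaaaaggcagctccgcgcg
Counted from the transcription start, the single core of Car9 begins at base -18, those of Adm at -90 and -54, and that of Egln3 at -229. Bnip3 holds 5 matches, P4ha2 holds 4, and Hk2 and Slc2a1 hold 2 each. The number of matches did not follow the size of the rise at day 24 over day 17. Car9, with 1 match, rose by 1.89, and Ldha, with 7 in 1 of its windows, rose by 0.14.

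These genes changed most often with time in culture. From day 17 to day 24, 24 of the 32 genes rose, 2 fell and 6 did not pass, and the median difference was 0.49 on the log2 scale against -0.01 over all genes. From day 8 to day 17 the same set split: 9 genes rose, 12 fell and 11 did not pass. Genes of pH control, blood vessel signalling and oxygen sensing (Car9, Adm, Vegfa, Egln3) rose over both intervals, whereas the glucose transporter Slc2a1, the hexokinase Hk2 and the regulator Pfkfb3 fell by day 17 and rose again by day 24. Counts come from limma at an adjusted p under 0.05, in an additive model of day, KGF and DCI over the 10 arrays, and errors are standard errors of that model. No day 8 culture had DCI, so the model's difference of day 17 minus day 8 is an estimate for cultures without DCI. It uses all 10 arrays and a DCI difference pooled over days 17 and 24, so it can lie outside the pairs without DCI. For Adm those pairs differed by 2.05 and 2.07, against 2.18 in the model. On the 6 arrays without DCI, 14 genes were called in that interval, 6 higher and 8 lower, against 38.8% of all genes.

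Set against the background, the day 24 minus day 17 count was 81.2% of the 32 genes, while 37.3% of all genes were called (14.8% higher and 22.5% lower). Among the 10916 brighter genes left after removing the lowest 40%, 51.5% were called (16.9% higher and 34.7% lower). All 4 day 24 arrays lay above all 4 day 17 arrays in 16 of the 32 genes, and below them in 1, Kdm3a, against 10.95% and 18.8% of all genes. Leaving out single arrays ended the day 24 calls of Slc2a3, Kdm3a, Pgk1, Pgam1 and Ldha and of no other gene. For day 17 minus day 8 the share called was 65.6%, against 42.4% of all genes (21.4% higher and 21% lower) and 59.7% of the brighter ones (28.3% and 31.4%), so that the count is near the background. Without the day 8 control array that count was 14, with 8 higher and 6 lower, and without the day 8 KGF array it was also 14, with 6 higher and 8 lower. The calls of Slc16a3, Pgam1, Pkm, Pfkfb4, Pdk1, P4ha2 and Ndrg1 ended without the control array, and those of Slc16a3, Aldoc, Pgam1, Pkm, Vegfa, Higd1a, Ndrg1 and Kdm3a without the KGF array.

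**Figure D1:**
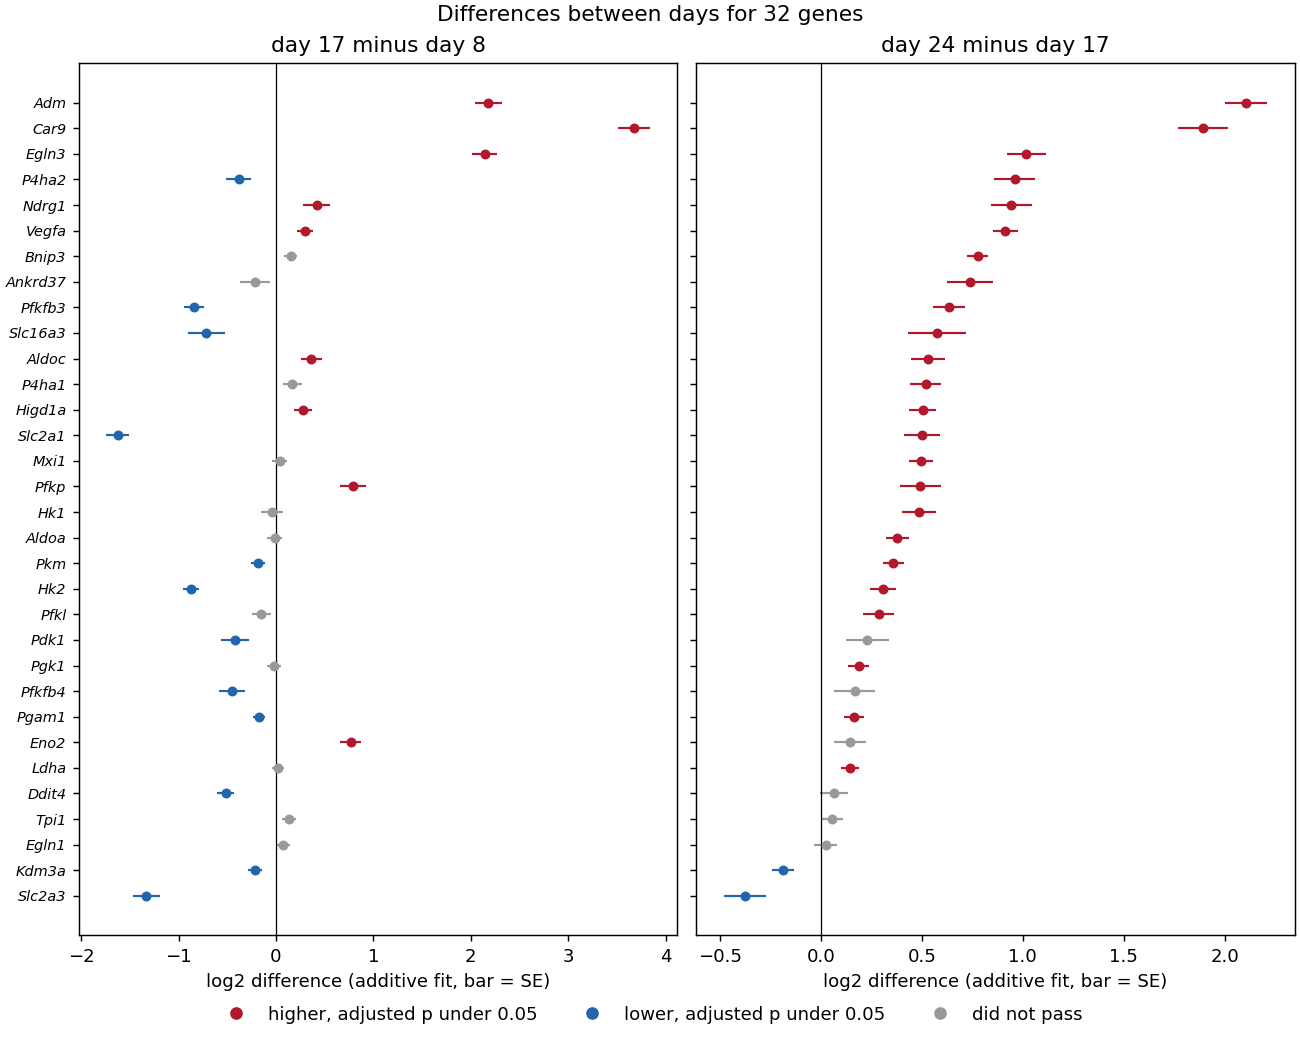
Differences between days on the log2 scale (x axis) for each of the 32 genes (y axis, in the order of the later difference), with day 17 minus day 8 on the left and day 24 minus day 17 on the right, each with its own range. Points are limma estimates and bars are standard errors; red is higher and blue lower at an adjusted p under 0.05, and grey did not pass. Of the 32 genes, 24 lie to the right of 0 and pass at day 24, while at day 17 the genes split, from Car9 at 3.68 to Slc2a1 at -1.63.

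Car9, a membrane carbonic anhydrase that helps cells to export acid, varied most. It read 3.58 (KGF) and 3.74 (control) at day 8, 7.91 (KGF with DCI), 7.64 (DCI), 7.27 (KGF) and 7.55 (control) at day 17, and 9.96 (KGF with DCI), 9.67 (DCI), 9.36 (KGF) and 8.95 (control) at day 24. The 3 days did not overlap, and the day 8 arrays lay far below the rest, near the bottom of the scale, where differences are compressed. The difference was 3.68 ± 0.16 (adjusted p = 3.44e-08) at day 17 over day 8 and 1.89 ± 0.12 (adjusted p = 1.86e-06) at day 24 over day 17. Adm encodes adrenomedullin, a secreted peptide that widens blood vessels. Its level was 6.29 (KGF) and 6.26 (control) at day 8, 8.39 (KGF with DCI), 8.60 (DCI), 8.34 (KGF) and 8.34 (control) at day 17, and 10.48 (KGF with DCI), 10.26 (DCI), 10.77 (KGF) and 10.59 (control) at day 24. Each day lay above the one before with no overlap, by 2.18 ± 0.14 (adjusted p = 4.79e-07) and then by 2.11 ± 0.10 (adjusted p = 4.16e-07). Vegfa, the main growth factor for blood vessels, read 8.01 (KGF) and 7.92 (control) at day 8, 8.91 (KGF with DCI), 8.74 (DCI), 8.32 (KGF) and 8.14 (control) at day 17, and 9.82 (KGF with DCI), 9.53 (DCI), 9.33 (KGF) and 9.09 (control) at day 24. The days did not overlap. Its rise was 0.30 ± 0.08 (adjusted p = 0.0123) by day 17 and 0.91 ± 0.06 (adjusted p = 2.29e-06) by day 24, and the first did not pass without the day 8 KGF array (difference 0.23, limma adjusted p = 0.101). Another probe set of Vegfa differed by 0.00 over the first interval.

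Of the prolyl hydroxylases, which mark HIF alpha subunits, Egln3 changed with day and Egln1 did not pass in either interval. Egln3 read 7.32 (KGF) and 7.46 (control) at day 8, 10.19 (KGF with DCI), 10.01 (DCI), 9.50 (KGF) and 9.36 (control) at day 17, and 10.98 (KGF with DCI), 10.86 (DCI), 10.84 (KGF) and 10.46 (control) at day 24. The days did not overlap, with rises of 2.14 ± 0.13 (adjusted p = 2.98e-07) and 1.02 ± 0.10 (adjusted p = 2.52e-05). Egln1 read between 9.04 and 9.39 on all 10 arrays. A dimmer probe set of Egln1 was higher at day 24 over day 17 by 0.34, with a limma adjusted p of 0.0294 over all probe sets.

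Both measured catalytic subunits of collagen prolyl 4-hydroxylase, which modifies collagen in the endoplasmic reticulum, rose at day 24. P4ha2 read 9.20 (KGF) and 9.44 (control) at day 8, 9.78 (KGF with DCI), 9.76 (DCI), 9.08 (KGF) and 8.73 (control) at day 17, and 10.76 (KGF with DCI), 10.56 (DCI), 10.17 (KGF) and 9.69 (control) at day 24. The DCI arrays of day 17 exceeded the day 24 control array, so that these days overlap, but each day 24 array was above the day 17 array of the same treatment, by 0.96 ± 0.10 (adjusted p = 4.87e-05) in the model. At day 17 against day 8 the model gave -0.38 ± 0.13 (adjusted p = 0.039), an estimate for cultures without DCI. That call ended on the 6 arrays without DCI. The day 17 arrays with DCI lay above both day 8 arrays. P4ha1 rose by 0.52 ± 0.08 (adjusted p = 0.000477) at day 24 without overlap. Ero1a, an oxidase that forms disulphide bonds in the endoplasmic reticulum and is the current symbol for Ero1l, read 9.16 (KGF) and 9.35 (control) at day 8, 10.58 (KGF with DCI), 10.42 (DCI), 10.11 (KGF) and 9.90 (control) at day 17, and 11.87 (KGF with DCI), 11.54 (DCI), 11.26 (KGF) and 11.02 (control) at day 24. It rose by 0.73 ± 0.10 (adjusted p = 0.000169) and by 1.17 ± 0.08 (adjusted p = 1.97e-06), and its other 2 probe sets differed by 0.50 and 1.34 and by 1.98 and 1.60 over the same intervals.

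At the mitochondrion, Bnip3, which promotes removal of mitochondria by autophagy, differed little between days 8 and 17 and rose at day 24. It read 11.26 (KGF) and 11.23 (control) at day 8, 11.58 (KGF with DCI), 11.40 (DCI), 11.47 (KGF) and 11.26 (control) at day 17, and 12.22 (KGF with DCI), 12.20 (DCI), 12.28 (KGF) and 12.11 (control) at day 24. All day 24 arrays were above all others, by 0.78 ± 0.05 (adjusted p = 1.97e-06) over day 17. Higd1a, a small protein of the inner mitochondrial membrane, rose by 0.28 ± 0.09 (adjusted p = 0.0264) and 0.51 ± 0.07 (adjusted p = 0.000233). Its other 2 probe sets did not follow it, with -0.05 and -0.29 at day 17 over day 8 and -0.05 and -0.02 at day 24 over day 17, and with the mean of its probe sets the first difference turned to -0.02.

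Of the remaining HIF targets, Ndrg1, a stress-responsive protein, read 9.15 (KGF) and 9.09 (control) at day 8, 10.64 (KGF with DCI), 10.56 (DCI), 9.36 (KGF) and 9.46 (control) at day 17, and 11.31 (KGF with DCI), 11.25 (DCI), 10.76 (KGF) and 10.46 (control) at day 24. Its rise at day 24 was 0.94 ± 0.10 (adjusted p = 5.88e-05). The day 17 cultures with DCI were about as high as the day 24 cultures without it, so the days overlap. Ankrd37, an ankyrin-repeat protein, read 7.51 (KGF) and 7.60 (control) at day 8, 7.62 (KGF with DCI), 7.44 (DCI), 7.23 (KGF) and 7.21 (control) at day 17, and 8.01 (KGF with DCI), 8.04 (DCI), 8.40 (KGF) and 7.995 (control) at day 24. All day 24 arrays were above all day 17 arrays, by 0.74 ± 0.11 (adjusted p = 0.000643). Mxi1, a repressor that opposes Myc, rose by 0.49 ± 0.06 (adjusted p = 0.000123) at day 24. Kdm3a, a histone demethylase, fell in both intervals, by 0.21 and by 0.19 on the log2 scale (limma adjusted p = 0.0305 and 0.018). Ddit4, an inhibitor of mTORC1 signalling known to respond to glucocorticoids, differed by -0.51 ± 0.09 (adjusted p = 0.000809) at day 17 over day 8 and by 0.07 ± 0.07 (adjusted p = 0.477) at day 24 over day 17, the last of which did not pass. It read 10.59 (KGF) and 10.49 (control) at day 8, 10.39 (KGF with DCI), 10.26 (DCI), 10.03 (KGF) and 10.09 (control) at day 17, and 10.39 (KGF with DCI), 10.53 (DCI), 10.17 (KGF) and 9.94 (control) at day 24.

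**Figure D2:**
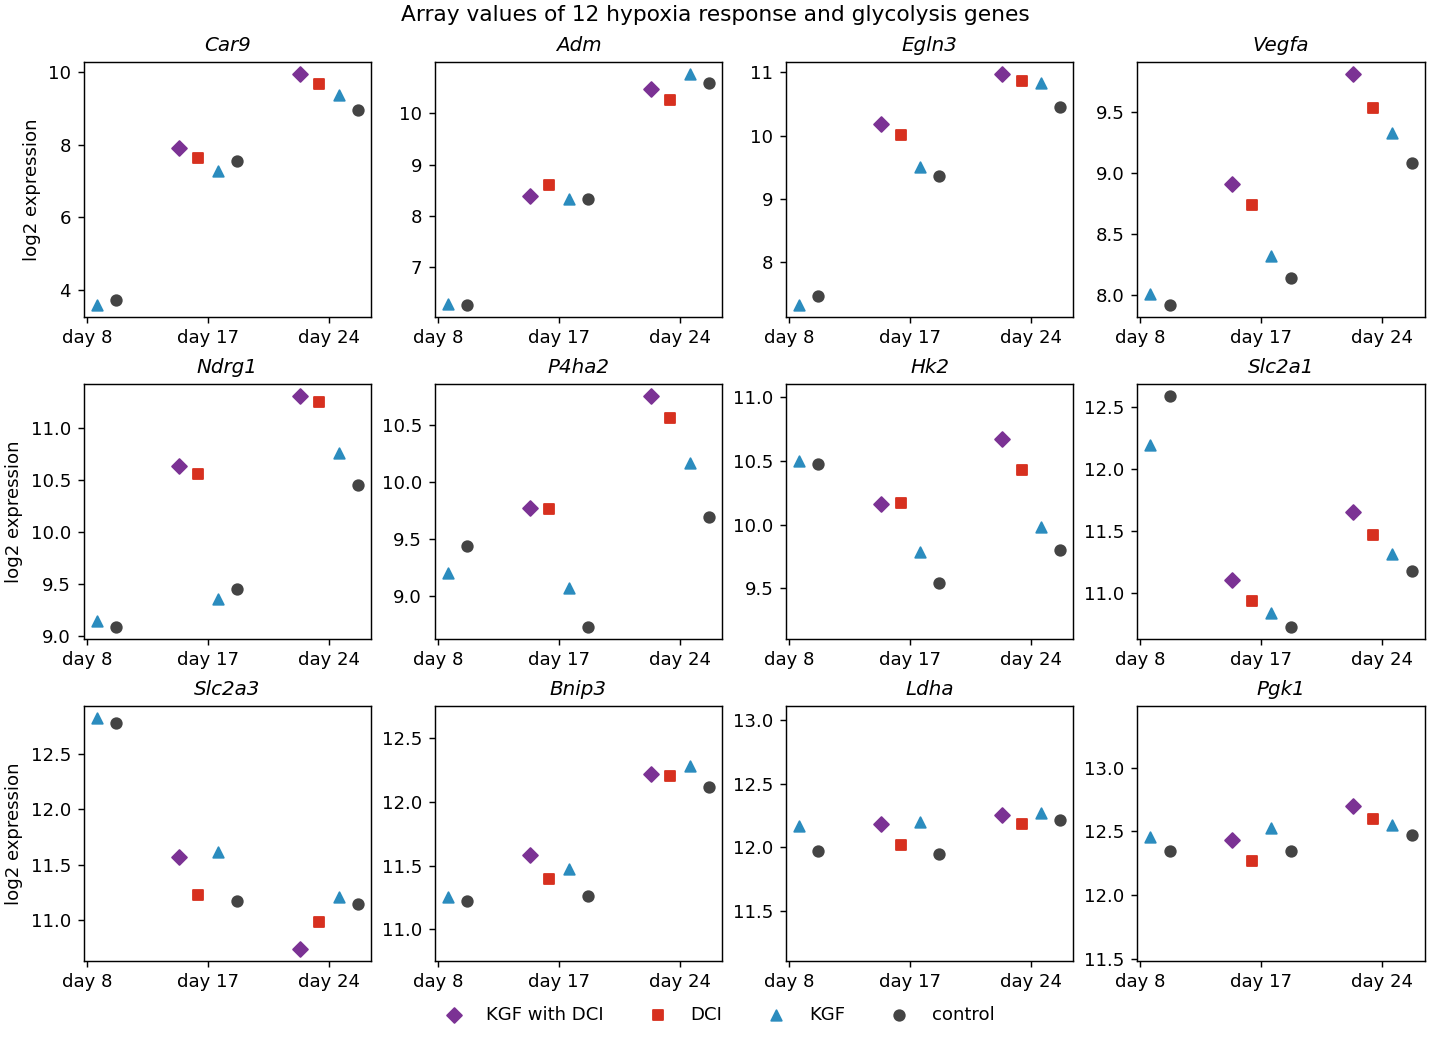
Log2 level (y axis, with its own range in each panel) of 12 of the genes on each of the 10 arrays, by day of differentiation (x axis), with 1 symbol per array for KGF with DCI, DCI, KGF and control. Car9, Adm and Egln3 climb at each day with no overlap between days, whereas Slc2a1 is highest at day 8, lowest at day 17 and intermediate at day 24.

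In the model, all 3 measured transporters fell by day 17 in cultures without DCI. Slc2a1, the basal glucose transporter GLUT1, read 12.19 (KGF) and 12.59 (control) at day 8, 11.11 (KGF with DCI), 10.93 (DCI), 10.84 (KGF) and 10.73 (control) at day 17, and 11.65 (KGF with DCI), 11.47 (DCI), 11.31 (KGF) and 11.18 (control) at day 24. No 2 days overlapped. It differed by -1.63 ± 0.12 (adjusted p = 1.16e-06) at day 17 over day 8 and by 0.50 ± 0.09 (adjusted p = 0.00131) at day 24 over day 17, so that it regained part of the loss. Without the day 8 control array its first difference was -1.35. Slc2a3, the glucose transporter GLUT3, read 12.83 (KGF) and 12.78 (control) at day 8, 11.57 (KGF with DCI), 11.22 (DCI), 11.61 (KGF) and 11.17 (control) at day 17, and 10.74 (KGF with DCI), 10.98 (DCI), 11.21 (KGF) and 11.15 (control) at day 24. It fell in both intervals, with differences of -1.33 ± 0.14 (adjusted p = 2.13e-05) and -0.38 ± 0.11 (adjusted p = 0.0172), and in the later interval the arrays overlap. Of its other 3 probe sets, the brightest differed by -0.30 in that interval and the 2 dim ones by 0.33 and 0.05, and none of the 3 passed. Slc16a3, the lactate exporter MCT4, read 6.23 (KGF) and 6.08 (control) at day 8, 6.13 (KGF with DCI), 6.07 (DCI), 5.16 (KGF) and 5.49 (control) at day 17, and 6.72 (KGF with DCI), 6.19 (DCI), 6.23 (KGF) and 6.01 (control) at day 24. Within day 17 it was low in the 2 cultures without DCI and near the day 8 level in the 2 with it, and the model gave -0.72 ± 0.19 (adjusted p = 0.0111) and then 0.58 ± 0.14 (adjusted p = 0.0101).

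Among the 12 measured glycolytic enzymes, 10 rose at day 24 over day 17, none fell, and Tpi1 and Eno2 did not pass. Their median difference was 0.30. Hk2, the inducible hexokinase that phosphorylates glucose, read 10.50 (KGF) and 10.48 (control) at day 8, 10.16 (KGF with DCI), 10.17 (DCI), 9.78 (KGF) and 9.54 (control) at day 17, and 10.67 (KGF with DCI), 10.43 (DCI), 9.98 (KGF) and 9.80 (control) at day 24. Its difference was -0.87 ± 0.08 (adjusted p = 1.13e-05) at day 17 over day 8 and 0.31 ± 0.06 (adjusted p = 0.00337) at day 24 over day 17. The later days overlap, and at both the DCI arrays were above the others. Pfkp, a phosphofructokinase subunit, read 8.22 (KGF) and 8.43 (control) at day 8, 9.37 (KGF with DCI), 9.32 (DCI), 9.43 (KGF) and 8.91 (control) at day 17, and 10.02 (KGF with DCI), 9.86 (DCI), 9.56 (KGF) and 9.56 (control) at day 24. Every later day was above the earlier ones, by 0.79 ± 0.13 (adjusted p = 0.000677) and 0.49 ± 0.10 (adjusted p = 0.00336). Eno2, an enolase best known from neurons, read 6.60 (KGF) and 6.50 (control) at day 8, 7.76 (KGF with DCI), 7.93 (DCI), 7.24 (KGF) and 7.33 (control) at day 17, and 7.88 (KGF with DCI), 7.98 (DCI), 7.56 (KGF) and 7.43 (control) at day 24. It rose by 0.77 ± 0.11 (adjusted p = 0.000171) at day 17 and differed by 0.15 in the later interval, which did not pass.

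Pgk1 and Ldha, phosphoglycerate kinase and the lactate-forming subunit of lactate dehydrogenase, are standard HIF targets and were bright on every array. Pgk1 read 12.46 (KGF) and 12.35 (control) at day 8, 12.43 (KGF with DCI), 12.27 (DCI), 12.53 (KGF) and 12.35 (control) at day 17, and 12.70 (KGF with DCI), 12.60 (DCI), 12.55 (KGF) and 12.47 (control) at day 24. Ldha read 12.17 (KGF) and 11.97 (control) at day 8, 12.18 (KGF with DCI), 12.02 (DCI), 12.20 (KGF) and 11.95 (control) at day 17, and 12.25 (KGF with DCI), 12.19 (DCI), 12.27 (KGF) and 12.22 (control) at day 24. Both spans are narrow: Pgk1 rose by 0.19 ± 0.05 (adjusted p = 0.0175) and Ldha by 0.14 ± 0.05 (adjusted p = 0.0331) at day 24, and neither passed at day 17 over day 8. Each of the 2 calls was lost without the day 17 DCI, the day 17 KGF with DCI or the day 24 DCI array. The other 2 probe sets of Pgk1 rose more at day 24 over day 17, by 0.40 and 0.26. Their limma adjusted p-values over all probe sets were 5.54e-05 and 0.00608. The aldolases Aldoa and Aldoc, the hexokinase Hk1, the phosphofructokinase Pfkl, the mutase Pgam1 and the pyruvate kinase Pkm rose by 0.17 to 0.53 at day 24.

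All 3 regulators of flux fell by day 17, and at day 24 only Pfkfb3 passed. Pfkfb3, which makes the activator fructose 2,6-bisphosphate, read 7.93 (KGF) and 7.92 (control) at day 8, 7.45 (KGF with DCI), 7.54 (DCI), 7.01 (KGF) and 7.17 (control) at day 17, and 8.24 (KGF with DCI), 8.05 (DCI), 7.79 (KGF) and 7.62 (control) at day 24. Its difference was -0.84 ± 0.11 (adjusted p = 8.17e-05) at day 17 and 0.63 ± 0.08 (adjusted p = 0.000169) at day 24, with no overlap between the later days. Pdk1, which inhibits pyruvate dehydrogenase and so limits entry of pyruvate into the mitochondrial cycle, read 9.38 (KGF) and 9.76 (control) at day 8, 9.26 (KGF with DCI), 9.09 (DCI), 9.14 (KGF) and 9.03 (control) at day 17, and 9.30 (KGF with DCI), 9.23 (DCI), 9.63 (KGF) and 9.28 (control) at day 24. Its difference of -0.42 ± 0.14 (adjusted p = 0.0334) at day 17 was a call that ended without the day 8 control array. Its other 3 probe sets differed by 0.10, -0.25 and -0.07 and did not pass. At day 24 it differed by 0.23, which did not pass. Pfkfb4 fell at day 17, by 0.45 on the log2 scale, and did not pass at day 24.

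In the model the first interval is an estimate for cultures without DCI, made from all 10 arrays. Taking both intervals, 8 genes rose and rose again (Pfkp, Aldoc, Vegfa, Adm, Car9, Egln3, Higd1a and Ndrg1), 7 fell and then rose (Slc2a1, Slc16a3, Hk2, Pgam1, Pkm, Pfkfb3 and P4ha2), and 9 rose in the later interval alone. Slc2a3 and Kdm3a fell in both. Because the intervals share the day 17 arrays, these pairs of calls are not independent. Several calls of the first interval were weak. On the 6 arrays without DCI, those of Aldoc, Pgam1, Pkm, Vegfa, Higd1a, P4ha2, Ndrg1 and Kdm3a ended. Of 17 alternative settings, the calls of Pgam1, P4ha2 and Pkm were kept in 5, 6 and 7. Other probe sets of Higd1a (-0.29 and -0.05) and Aldoc (-0.13) had the opposite sign in that interval. The share of all genes with each pattern is not given, and the first-interval count was near the background.

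Markers of other cell types moved with day. From day 8 to day 17 all 17 measured macrophage markers rose, with summed log2 levels of 141 to 171 at day 17 against 75.8 to 80.8 at day 8, and 8 of 9 primitive erythroid markers fell, with sums of 41.4 to 45.4 against 81.9 to 82.1. Over the same interval 8 of 10 epithelial, 10 of 14 muscle and 8 of 9 neuronal markers rose. From day 17 to day 24, 8 of 10 epithelial markers rose, with sums of 98.6 to 106 at day 24 against 93.9 to 101 at day 17, while 8 of 17 macrophage markers fell and 1, Cd14, rose. Of 14 muscle markers 6 rose and 4 fell, and of 9 neuronal markers 1 rose and 5 fell. The macrophage sums were lower at day 24 with DCI (119 and 127, against 141 and 144 at day 17), and without DCI they were 168 and 174 at day 24 against 171 and 171 at day 17. All 11 proliferation genes fell in each interval, with sums of 115 at day 8, 104 to 105 at day 17 and 86.0 to 89.9 at day 24. Array values have no true 0; the lowest macrophage marker at day 8 was C1qc at 3.003. The part of these cell types in the day differences was not tested.

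A subset of the genes rose with DCI. At matched day and KGF, 12 of the 32 rose with DCI, 1 fell and 19 did not pass, which is 40.6% of them against 15.4% of all genes (7.27% higher, 8.09% lower) and 22.8% of the brighter genes. The median difference was 0.15 against -0.01 over all genes. The genes that rose were the lactate exporter Slc16a3, Hk2, Eno2, Pfkfb3, Vegfa, Car9, Egln3, both P4ha subunits, Ndrg1, Mxi1 and Ddit4, each higher in 4 of 4 matched pairs of arrays. Pfkfb4 fell in 4 of 4. These pairs, and the overlaps given below, use the same arrays as the test and are not separate support. Of the 32 genes, called or not, 15 were higher in 4 of 4 pairs, against 17.2% of all genes. Of the 12 glycolytic enzymes only Hk2 and Eno2 passed. The count depended on single arrays: 8 genes were called without the day 24 control array, which ended the calls of Slc16a3, Pfkfb4, Car9, P4ha1 and Mxi1, and 17 without either day 8 array.

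**Figure D3:**
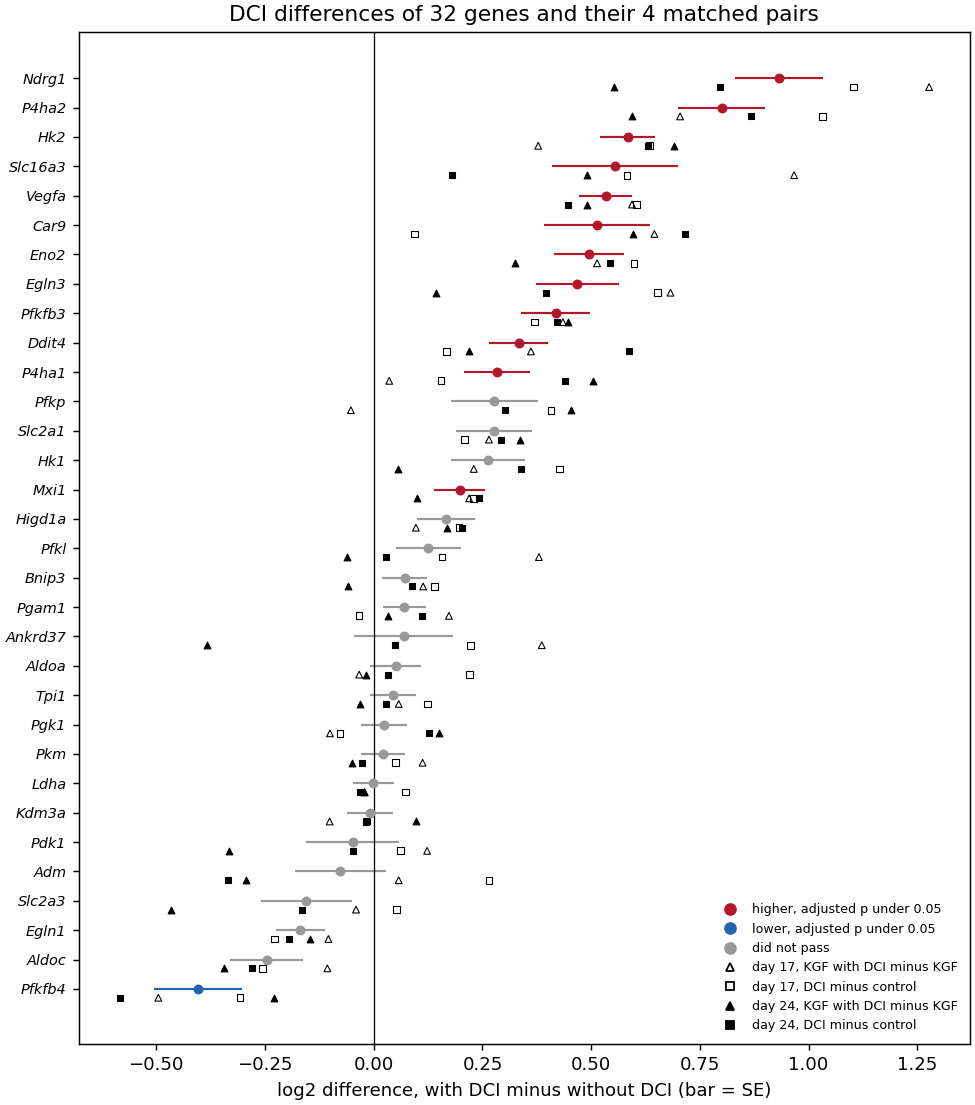
Difference with DCI on the log2 scale (x axis) for each of the 32 genes (y axis, in order of size). Round points with bars are limma estimates with standard errors, red (higher) or blue (lower) where they passed at an adjusted p under 0.05 and grey otherwise; the small symbols are the 4 matched pairs of arrays, open at day 17 and filled at day 24. Ndrg1 and P4ha2 stand farthest to the right at 0.93 and 0.80, Pfkfb4 lies to the left at -0.40, and Ldha and Pgk1 are next to 0.

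Ndrg1 showed the largest difference with DCI, 0.93 ± 0.10 (adjusted p = 0.00016). Its DCI arrays at day 17, at 10.64 and 10.56, were above the 9.36 and 9.46 of the arrays without DCI, and at day 24 they were at 11.31 and 11.25 against 10.76 and 10.46. P4ha2 rose by 0.80 ± 0.10 (adjusted p = 0.000425) and P4ha1 by 0.28 ± 0.08 (adjusted p = 0.0307), and Ero1a, in the same compartment, by 0.53 ± 0.08 (adjusted p = 0.00104). Vegfa was higher with DCI by 0.53 ± 0.06 (adjusted p = 0.000228), with DCI arrays at 8.91 and 8.74 against 8.32 and 8.14 at day 17, and at 9.82 and 9.53 against 9.33 and 9.09 at day 24. Car9 rose by 0.51 ± 0.12 (adjusted p = 0.0176) and Egln3 by 0.47 ± 0.10 (adjusted p = 0.00831). The arrays with and without DCI did not overlap on either day for these 3 genes, nor for Ndrg1 or P4ha2. For Egln3 at day 24 the gap was small, with the lowest DCI array at 10.858 and the highest other array at 10.838. Higd1a, which did not pass for DCI, did not overlap on either day as well. The share of all genes without such overlap was not counted. For Adm the difference was -0.08 ± 0.10 (adjusted p = 0.71), which did not pass.

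In glucose handling, Hk2 rose with DCI by 0.58 ± 0.06 (adjusted p = 0.000149), Eno2 by 0.49 ± 0.08 (adjusted p = 0.00209) and Slc16a3 by 0.56 ± 0.14 (adjusted p = 0.0261). The arrays of Hk2 and Eno2 did not overlap on either day. Pfkfb3 rose by 0.42 ± 0.08 (adjusted p = 0.0053), though its other probe set differed by 0.13, whereas its relative Pfkfb4 differed by -0.40 ± 0.10 (adjusted p = 0.0215). Slc2a1 was higher in 4 of 4 pairs and did not overlap on either day, but its difference of 0.28 ± 0.09 (adjusted p = 0.0588) did not pass. Ldha (SE 0.05, limma adjusted p = 0.996), Pgk1 (0.02 ± 0.05, adjusted p = 0.827) and Pdk1 (-0.05 ± 0.11, adjusted p = 0.831) did not pass. Ddit4, a known glucocorticoid target, rose by 0.33 ± 0.07 (adjusted p = 0.00763). Mxi1 rose by 0.20 ± 0.06 (adjusted p = 0.0479), with another probe set at 0.03, and lost its call in the robust fit, in the fit without a variance trend, with the mean of its probe sets and without any 1 of the 8 later arrays.

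Treatment markers of the 2 agents moved as well: 12 of 14 glucocorticoid-responsive genes and 7 of 13 cAMP-responsive genes rose with DCI, and none of either list fell. Per1 is counted in both lists. With DCI, 16 of 17 macrophage markers fell and none rose. Their summed log2 levels were 141 and 144 with DCI against 171 and 171 without it at day 17, and 119 and 127 against 168 and 174 at day 24. The lowest macrophage marker with DCI was Aif1 at 3.98. Of the 10 epithelial markers, 6 rose and none fell. In the DCI by day interaction 11 of the 17 macrophage markers passed, each with a DCI difference lower at day 24 than at day 17. So did 8 of 10 markers of visceral endoderm and liver and 4 of 8 endothelial markers, in the same direction. Of 8 alveolar type II markers 0 passed in that interaction. For DCI itself 1 of the 8, Napsa, rose and none fell, and 7 of the 8 differences were above 0. From day 8 to day 17, 4 of the 8 rose and none fell, and from day 17 to day 24, 3 rose and none fell. The part of these cells in the DCI differences was not tested.

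Whether the DCI difference changed with day was tested on the 8 later arrays, with an interaction term in limma that left 3 residual degrees of freedom. Of the 32 genes 0 passed, against 2.51% of all genes (0.533% with a larger and 1.97% with a smaller difference at day 24), and 8 of the 32 and 2912 of all 18193 genes had an unadjusted p under 0.05. The smallest adjusted p-values were those of P4ha1, whose DCI difference was 0.38 ± 0.09 (adjusted p = 0.0592) larger at day 24, and of Ndrg1 and Egln3, at -0.52 ± 0.12 (adjusted p = 0.0614) and -0.40 ± 0.10 (adjusted p = 0.0875). Without the day 24 control array Ndrg1 and Egln3 passed, and without the day 17 control array Ndrg1 did. Adm was higher with DCI at day 17 (8.39 and 8.60 against 8.34 and 8.34) and lower at day 24 (10.48 and 10.26 against 10.77 and 10.59), and its interaction, -0.48 ± 0.14 (adjusted p = 0.126), did not pass.

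No gene of the set passed for KGF. With limma, 0 of the 32 passed and 0.0055% of all genes did, while 13 of the 32 and 1466 of all 18193 genes had an unadjusted p under 0.05. The differences ran from -0.03 to 0.23 with standard errors of 0.04 to 0.13. Of the 32 differences 30 were above 0, against 48.2% of all genes, with a median of 0.12 against -0.004 over all genes. The pyruvate kinase Pkm had the smallest adjusted p, with 0.23 ± 0.05 (adjusted p = 0.177). Vegfa differed by 0.19 ± 0.05 (adjusted p = 0.389) and Ldha by 0.15 ± 0.04 (adjusted p = 0.39). A total of 10 genes were higher with KGF in 5 of 5 matched pairs: Bnip3, Egln1, Kdm3a, Ldha, Mxi1, P4ha1, Pfkl, Pgk1, Pkm and Vegfa. Of all genes, 5.06% were higher in 5 of 5.

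The question in the title, whether both treatments together exceed the sum of each, was asked with the KGF by DCI interaction on the same 8 arrays. With limma, 0 of 32 genes and 0% of all genes passed, and 1 of the 32 and 267 of all genes had an unadjusted p under 0.05. The interactions of the 32 genes ran from -0.30 to 0.35 with standard errors of 0.09 to 0.30, so that departures of that size were not measured precisely. As single arrays, cultures with both treatments exceeded the control in 30 of 32 genes at day 17, with a median of 0.34, and in 28 of 32 at day 24, with a median of 0.24. Of all genes 50.7% were higher at day 17 and 47.9% at day 24, with medians of 0.004 and -0.014. A 2-fold difference was reached by 2 genes at each day, Ndrg1 and P4ha2 at day 17 and Car9 and P4ha2 at day 24, against 2.93% and 4.75% of all genes. These pairs have no replicate and no test.

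**Figure D4:**
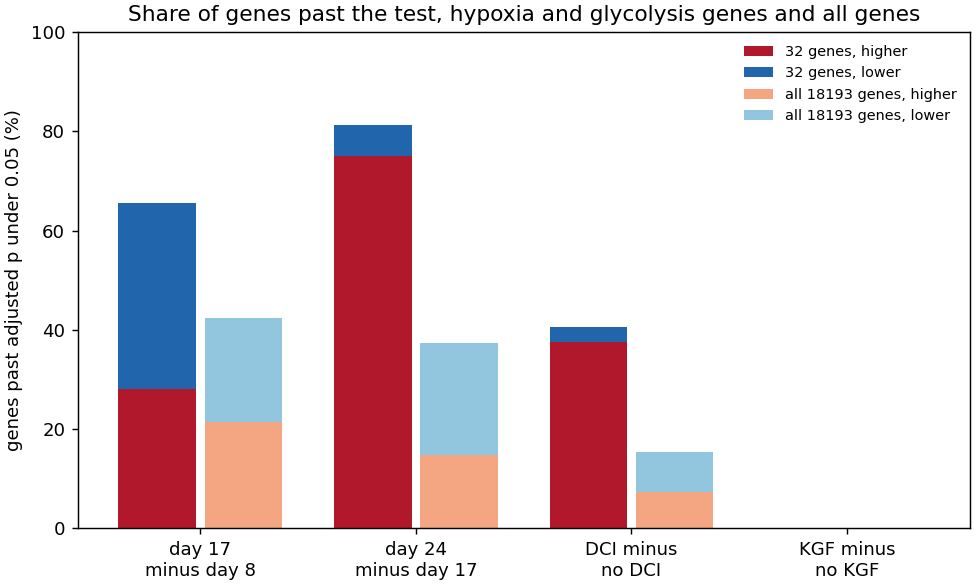
Percentage called (y axis, from 0) at an adjusted p under 0.05 in limma, among the 32 genes and among all genes, for the 2 intervals between days, for DCI and for KGF, split into higher and lower. The 32 genes exceed all genes most among those higher at day 24 over day 17 (75% against 14.8%) and among those higher with DCI (37.5% against 7.27%).

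The genes that control HIF itself moved in both directions. Of 9 regulators outside the set, 2 rose and 1 fell with DCI. Hif3a, an alpha subunit that can act as an inhibitor of the others, read 9.45 and 9.60 with DCI against 8.04 and 7.997 without it at day 17, and 8.78 and 8.93 against 7.94 and 7.90 at day 24. The DCI arrays were higher on both days, by 1.22 ± 0.11 (adjusted p = 4.36e-05), and the difference was smaller at day 24 (-0.57 ± 0.12, adjusted p = 0.0403). Epas1, the alpha subunit known as HIF-2 alpha, rose by 0.60 ± 0.14 (adjusted p = 0.0169), and Arnt2, a beta subunit, differed by -0.59 ± 0.15 (adjusted p = 0.0222). Hif1a itself differed by 0.20 ± 0.06 (adjusted p = 0.0518) with DCI, which did not pass, nor did Arnt, Vhl, Egln2, Hif1an or Cited2.

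From day 17 to day 24, 3 of the 9 regulators rose and 4 fell. Epas1 rose by 0.87 ± 0.14 (adjusted p = 0.000886), Cited2, which competes with HIF for its coactivator, by 0.53 ± 0.12 (adjusted p = 0.00497), and Hif1a by 0.28 ± 0.06 (adjusted p = 0.00496). Hif1an, the asparaginyl hydroxylase that inhibits HIF, differed by -0.51 ± 0.08 (adjusted p = 0.000665), and Hif3a, Vhl and Egln2 fell by 0.38, 0.28 and 0.23. HIF activity is set largely at the level of protein, which was not measured. From day 8 to day 17, Vhl rose and Hif1a, Hif1an and Cited2 fell.

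Other HIF targets, from a second list of 27 genes of which 24 were measured, are given for comparison. With DCI 11 rose and none fell, led by Hilpda, an inhibitor of lipid breakdown at lipid droplets (0.92 ± 0.06, adjusted p = 6.72e-06), Car12, a second membrane carbonic anhydrase (0.90 ± 0.20, adjusted p = 0.0141), and Errfi1, an inhibitor of EGF receptor signalling (0.85 ± 0.15, adjusted p = 0.00372). Errfi1 is also counted above among the glucocorticoid-responsive genes that rose with DCI. At day 24 over day 17, 18 rose and 1 fell, among them Car12 (0.99 ± 0.20, adjusted p = 0.00363) and Tmem45a (0.93 ± 0.09, adjusted p = 2.59e-05). At day 17 over day 8, 16 rose and 3 fell. The collagen cross-linking enzyme Lox differed most, by 4.96 ± 0.10 (adjusted p = 9.38e-11), followed by Angptl4, a secreted inhibitor of lipoprotein lipase, by 4.80 ± 0.08 (adjusted p = 2.56e-11).

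Of 16 measured genes of a further glycolysis list, 5 rose and 4 fell at day 24 over day 17, and 1 rose and 2 fell with DCI. Ldhb, the subunit of lactate dehydrogenase that favours pyruvate, rose by 0.36 ± 0.06 (adjusted p = 0.00191) with DCI, while the hexokinase Hk3 and the lactate carrier Slc16a7 differed by -0.75 ± 0.09 (adjusted p = 0.000429) and -0.76 ± 0.13 (adjusted p = 0.00243). In mitochondrial oxidation, 4 of 24 genes rose and 8 fell at day 24, with a median of -0.12. The pyruvate carrier subunit Mpc1 rose by 0.55 ± 0.07 (adjusted p = 0.000136), and Ndufs1, a subunit of respiratory complex I, differed by -0.43 ± 0.06 (adjusted p = 0.000203). With DCI 3 of the 24 rose (Dlat, Mdh2 and Cs) and none fell.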

How the data were processed

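The 10 arrays hold log2 intensities for 45101 probe sets. The submitters' processing notes name RMA and the labels name Bioconductor as the means by which the authors made these log2 values, and the version is not given in the sources used here. RMA forces arrays to one distribution, so a difference is relative to the rest of an array, and dim values are compressed.

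Of the probe sets, 34945 had 1 gene symbol in the platform annotation, 932 several and 9160 none, and 64 were controls; the 18193 genes were each read from their brightest probe set by mean, with no filter on low values. With 1 array per condition, limma 3.58.1 (R 4.3.3) fitted day, KGF and DCI additively over 10 arrays (5 residual degrees of freedom), moderated variances with a mean trend and adjusted p-values by Benjamini-Hochberg over all genes. The p-values therefore measure departure from additivity together with array noise, and the number of arrays limits the precision. Interactions were fitted on the 8 arrays of days 17 and 24. The fits were tested on simulated data. The members, lists and tests were chosen with earlier results of these data known.

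Genes given on every array were those among the 8 largest called differences of a contrast, plus Vegfa, Slc2a1, Ldha, Pgk1, Pdk1, Egln3, Car9 and Ddit4; of other lists, all HIF regulators and up to 4 called genes per list and contrast. Ero1a was added to them as the current symbol of a member. Called members with other probe sets were compared with them, and 2 of 6 for DCI, 4 of 16 for day 24 over day 17 and 6 of 11 for day 17 over day 8 had a probe set with the opposite sign or less than 0.5 times the change. Promoter windows came from RefSeq (GRCm38.p6). Plots used Python 3.11.15 with matplotlib 3.10.9.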

Additional observations from a re-analysis of the deposited data

Results flagged for a closer look

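For 4 genes the difference with DCI had one sign in both matched pairs at day 17 and the opposite sign in both at day 24. The share of all genes with this pattern was not counted, so the number of genes is not a result about the set. The change in that difference from day 17 to day 24 was -0.48 for Adm, -0.28 for Pdk1, -0.12 for Pkm and 0.23 for Pgk1 on the log2 scale. In limma's interaction test none of the 4 passed, with adjusted p = 0.126 for Adm, 0.266 for Pdk1, 0.59 for Pkm and 0.161 for Pgk1. For Adm the pairs with DCI minus without it were 0.26 and 0.06 at day 17 and -0.34 and -0.29 at day 24. For Pgk1 they were -0.08 and -0.10 at day 17 and 0.13 and 0.15 at day 24. For Pkm they were 0.05 and 0.11, then -0.03 and -0.05, and for Pdk1 0.06 and 0.12, then -0.05 and -0.33.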

How the results depend on the processing

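No paired analysis by replicate number was possible because every condition has 1 array, so that replicate numbers pair nothing; arrays matched by day and the other treatment were compared through the additive model and as single pairs. Of 60 called differences of single genes, tried under each alternative in 1046 checks, 912 kept direction and threshold, 133 kept direction but no longer passed, and 1 reversed: Higd1a at day 17 over day 8 was -0.021 with the mean of its probe sets, which disagree. Calls held under every alternative for 18 of 26 genes at day 24 over day 17, 10 of 21 at day 17 over day 8 and 7 of 13 with DCI (Ddit4, Egln3, Eno2, Hk2, Ndrg1, P4ha2 and Vegfa). Leaving out each array in turn, the number of genes called ranged from 8 to 17 for DCI, 22 to 27 for day 24 over day 17, 14 to 19 for day 17 over day 8, 0 to 2 for DCI by day, and 0 to 0 for KGF and for KGF by DCI. For DCI by day, 1 gene passed with a robust prior (Ndrg1), 1 with a second quantile normalization (P4ha1) and 3 at an adjusted p under 0.10 (those genes and Egln3), against 0; without the day 24 control array Egln3 and Ndrg1 passed, and without the day 17 control array Ndrg1. The causes were not tested. On the 6 arrays without DCI, 19 genes rose at day 24 over day 17 and 0 fell, and 3366 of all genes were called, against 6778 on 10 arrays. Without a variance trend 14 genes were called at day 17 over day 8. The interactions rest on 8 arrays and 3 residual degrees of freedom, and dim readings such as Car9 at day 8 understate differences.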

Other observations

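Genes of glucose synthesis, which lie outside the set described, were also read. Of 6, 3 rose with DCI and none fell: Pck1, the cytosolic enzyme that commits carbon to glucose (0.80 ± 0.17, adjusted p = 0.0103), Pcx, pyruvate carboxylase (0.64 ± 0.08, adjusted p = 0.000531), and the mitochondrial Pck2 (0.28 ± 0.07, adjusted p = 0.0194), from limma. Pck1 was near the bottom of the scale throughout, at 3.70 and 3.89 with DCI against 2.51 and 2.59 without it at day 17, and at 3.14 and 2.83 against 2.48 and 2.79 at day 24. Pdk4, a pyruvate dehydrogenase kinase known for its response to fasting and fatty acids, rose by 4.28 ± 0.10 (adjusted p = 2.67e-10) at day 17 over day 8 and by 0.74 ± 0.07 (adjusted p = 3.23e-05) at day 24 over day 17, whereas Pdk1 fell in the first interval and did not pass in the second; for DCI the difference of Pdk4 was -0.05 ± 0.07 (adjusted p = 0.723).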
